A study of Mus musculus with 24 samples.

Results

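BAM15 is a small-molecule mitochondrial uncoupler, and its effect on the transcriptome of inguinal white adipose tissue was read in 16-week-old mice as the difference between 6 BAM15 mice and 7 control mice. These 13 libraries, of 24 in the series, were chosen by their labels alone: age 16 weeks and treatment BAM15 or CTRL, called Young BAM15 and Young CTRL below. All mice were wild-type C57BL/6J and, by the title of the series, fed a high-fat diet, so both groups carry the diet and neither shows lean tissue. The dose, route and length of the BAM15 treatment and the sex of the mice are not in the labels. The other 11 libraries came from 92-week-old mice, 6 CTRL and 5 BAM15, and enter here through the shared estimate of spread and in a last comparison of the effect at both ages. Each library was made with a 3′ end kit from the RNA of 1 frozen depot, so counts report transcripts without regard to their length.

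An uncoupler carries protons across the inner mitochondrial membrane without passing through ATP synthase, so substrate is oxidised and its energy is released as heat. Inguinal fat is a subcutaneous depot that stores triglyceride in its adipocytes. On a high-fat diet these cells enlarge, raise leptin, and the tissue gathers macrophages that take up lipid, with more matrix around the cells. The depot also holds the inguinal lymph node and lies against skin and muscle, so a dissected piece can carry RNA of those tissues.

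The adipocyte genes Adipoq and Fabp4 were abundant in all 13 libraries, at 1390 to 6196 and 10663 to 35434 CPM (counts per M counts of the library, scaled with TMM factors) respectively. Library totals were 11.5 to 21.9 M counts in Young CTRL and 8.62 to 15.2 M in Young BAM15. Neighbouring tissues were unevenly spread. B cell transcripts, which mark lymph node here (mean log2 CPM of the 15 B cell genes above 3), were present in 2 of 7 Young CTRL libraries (1 and 5) and in 5 of 6 Young BAM15 libraries (all except 1). Skin keratin (Krt14 above 20 CPM) was present in Young CTRL 1 at 840.0 CPM and Young CTRL 7 at 90.0 CPM, and in no Young BAM15 library. Skeletal muscle transcript (Acta1 above 10000 CPM) was present in 1 library of each group, Young CTRL 7 and Young BAM15 3. Young CTRL 4 had the lowest share of the mitochondrial ribosomal RNA mt-Rnr2, 0.121% of counts. Many results below are therefore given beside at least 1 of 2 further fits. The first has the B cell level of each library as a covariate, and the second leaves out the libraries with skin keratin. Both keep Young CTRL 4. Where no further fit is named, a value is from the fit to all libraries alone.

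**Figure D1:**
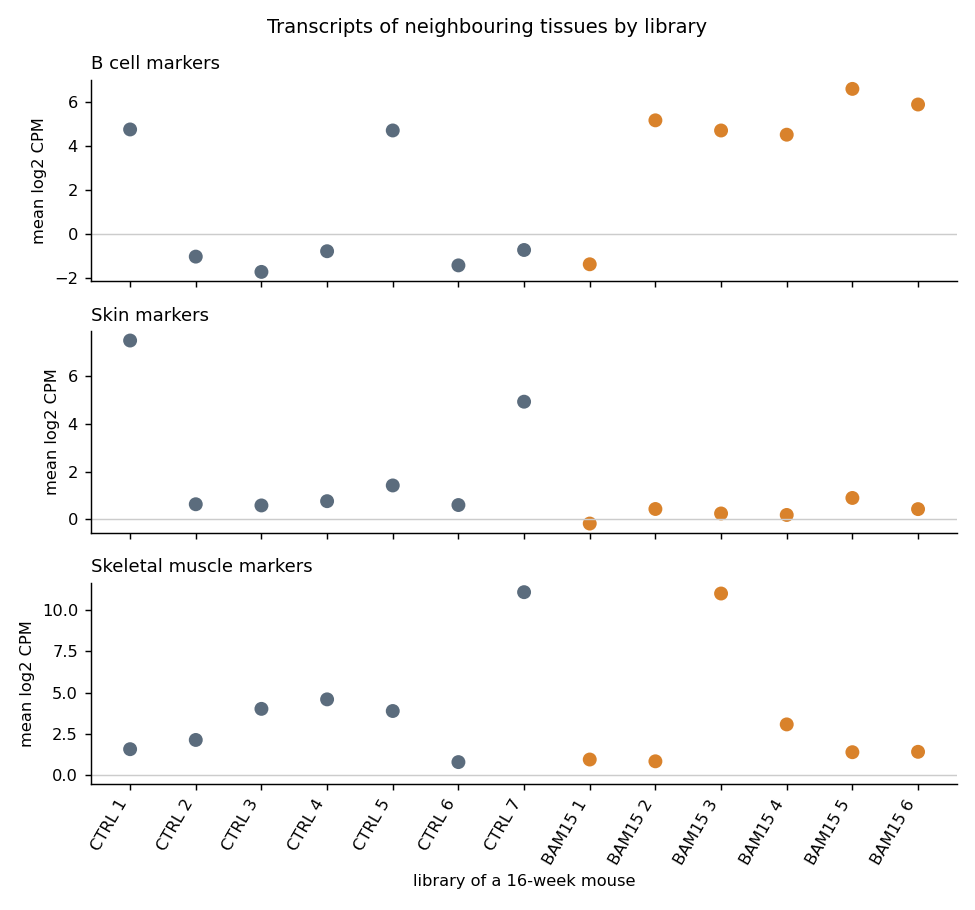
Mean log2 CPM of the B cell, skin and skeletal muscle marker lists in each of the 13 libraries (grey: Young CTRL, orange: Young BAM15). B cell transcript is high in 2 of 7 Young CTRL and 5 of 6 Young BAM15 libraries, skin transcript in Young CTRL 1 and 7, and muscle transcript in Young CTRL 7 and Young BAM15 3.

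No gene passed the threshold of an adjusted p of 0.05 in the quasi-likelihood test of edgeR, which called 0 of 15939 genes tested. At an unadjusted p under 0.05 there were 2081 genes (13.1% of those tested), 985 of them higher with BAM15 (6.18%) and 1096 lower (6.88%). Without Young BAM15 5 there were 1184. The 13 mice separated without overlap for 189 genes (1.19%), with all Young BAM15 values above all Young CTRL values for 86 (0.54%) and below them for 103 (0.646%). Other tools called genes in the same counts: the Wald test of DESeq2 called 161 (1.02%), 34 higher (0.214%) and 127 lower (0.801%), limma-voom with quality weights called 679 (4.26%), 383 higher (2.4%) and 296 lower (1.86%), and 107 were called by both. With the B cell covariate 698 genes (4.38%) had an unadjusted p under 0.05, 153 higher (0.96%) and 545 lower (3.42%), and without the skin libraries 2491 of 15783 (15.8%) did, 1334 higher (8.45%) and 1157 lower (7.33%). In all 3 fits 322 genes had an unadjusted p under 0.05 in the same direction, 222 lower and 100 higher, and 89 of them separated without overlap. With the covariate and without the skin libraries together 355 of 15783 genes (2.25%) had such a p, 126 higher (0.798%) and 229 lower (1.45%). Adjusted p values below are from edgeR over all 15939 genes, with all libraries and no covariate, unless another fit is named. None of the genes named passed 0.05 there. A member of a list is counted as lower or higher at an unadjusted p under 0.05, to be read against the percentages above.

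Several genes of lipid storage lay lower in the tissue of BAM15 mice, though none passed the adjusted threshold: genes that supply fatty acid synthesis with reducing power and citrate, a stearoyl-CoA desaturase, a glycerol kinase and a perilipin that coats lipid droplets. Mest, a gene of the adipocyte whose level follows the expansion of fat mass, had the lowest, median and highest values 366.3, 735 and 1458 CPM in Young CTRL against 90.9, 242 and 366.1 CPM in Young BAM15. The groups did not overlap, and the log2 change was -1.79 ± 0.41 (SE, adjusted p = 0.179). With the B cell covariate it was -1.20 (unadjusted p under 0.05), and without the skin libraries -2.03 (unadjusted p under 0.05). Mest also passed in DESeq2, at an adjusted p of 0.00316.

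Of 16 genes of fatty acid synthesis, 7 lay lower and 0 higher at an unadjusted p under 0.05, 3 of them without overlap, and the list had a median log2 change of -0.37 against 0.035 over all genes. Me1, the malic enzyme that makes cytosolic NADPH, lay at 282, 440.1 and 787 CPM in Young CTRL against 89.4, 183 and 257 CPM in Young BAM15 (lowest, median and highest), with no overlap. Its log2 change was -1.32 ± 0.37 (adjusted p = 0.192), and -1.14 with the B cell covariate. Slc25a1, the carrier that exports citrate from mitochondria, ranged over 171 to 312 CPM in Young CTRL against 84.5 to 159 CPM in Young BAM15, also with no overlap, and had a log2 change of -0.88 ± 0.32 (adjusted p = 0.271). Acss2, which activates acetate to acetyl-CoA, ranged over 45.5 to 63.5 against 23.5 to 35.2 CPM, a log2 change of -0.83 ± 0.29 (adjusted p = 0.271). The covariate brought Slc25a1 to -0.58 (unadjusted p above 0.05) and Acss2 to -0.59 (unadjusted p above 0.05). Fasn, the fatty acid synthase itself, had overlapping groups at 659, 869.7 and 1309 and 454, 507 and 734 CPM and a log2 change of -0.72 ± 0.33 (adjusted p = 0.352). Acly, the ATP citrate lyase, had a log2 change of -0.70 ± 0.26 (adjusted p = 0.276), with Young CTRL 1 far above the rest, and -0.32 without that library. The list had 2 lower members with the B cell covariate and 6 without the skin libraries. With the covariate and without the skin libraries together 1 lay lower, with a median of -0.21, against 1.45% of all genes.

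Among 11 desaturases and elongases, 7 lay lower and 0 higher, with a median of -0.71, -0.53 with the B cell covariate (6 lower) and -0.43 without the skin libraries (4 lower). With both changes 1 lay lower, with a median of -0.32. Scd2, a stearoyl-CoA desaturase, was at 182, 294 and 528 CPM in Young CTRL against 78.2, 102 and 153 CPM in Young BAM15. No BAM15 mouse reached the lowest control, and the log2 change was -1.49 ± 0.37 (adjusted p = 0.179), -1.21 with the covariate and -1.68 without the skin libraries. Scd1, the main adipocyte desaturase, ranged over 7704 to 16589 CPM in Young CTRL against 5616 to 13794 CPM in Young BAM15, with a log2 change of -0.04 ± 0.34 (adjusted p = 0.978) whose sign differed between fits. Hacd2, a dehydratase of the elongation cycle, had a log2 change of -1.50 ± 0.44 (adjusted p = 0.197), which was -0.84 without the skin libraries. Fads3, a fatty acid desaturase, had -0.71 ± 0.28 (adjusted p = 0.287) and -0.28 with the covariate.

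Triglyceride synthesis had 6 of 17 members lower and 0 higher, with a median of -0.62 (-0.34 and 3 lower with the B cell covariate, -0.49 and 6 lower without the skin libraries). With both changes 2 lay lower, with a median of -0.45. Gk, the glycerol kinase, lay at 11.8, 17.4 and 44.3 CPM in Young CTRL against 6.14, 6.5 and 11.1 CPM in Young BAM15. Its groups did not overlap, and its log2 change of -1.49 ± 0.36 (adjusted p = 0.179) was -1.45 with the covariate and -1.30 without the skin libraries. Gpd1, which makes glycerol 3-phosphate, had a log2 change of -0.79 ± 0.26 (adjusted p = 0.253). Gpat3, which adds the first acyl chain, had -0.64 ± 0.24 (adjusted p = 0.278), and Dgat2, which adds the last, -1.11 ± 0.50 (adjusted p = 0.347). For these 3 genes the values with the B cell covariate were -0.45, -0.33 and -0.66, all with an unadjusted p above 0.05.

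For the coat of the lipid droplet and the uptake of fatty acids, 10 of 22 genes lay lower and 0 higher, with a median of -0.53 (-0.35 and 2 lower with the B cell covariate, -0.64 and 9 lower without the skin libraries). With both changes 1 lay lower, with a median of -0.43. Plin2, a perilipin found on droplets of most cell types, lay at 272, 443 and 728 CPM in Young CTRL against 129, 178 and 298 CPM in Young BAM15. The groups overlapped in 1 control library, and the log2 change of -1.17 ± 0.29 (adjusted p = 0.179) was -1.12 with the covariate and -1.09 without the skin libraries. Cidec, which fuses droplets into the single large one of white adipocytes, had a log2 change of -0.80 ± 0.29 (adjusted p = 0.274). Lpl, the lipase that frees fatty acids from circulating triglyceride, was at 7235, 13087 and 26216 CPM in Young CTRL against 4132, 7231 and 11098 CPM in Young BAM15, with overlapping groups and a log2 change of -1.05 ± 0.41 (adjusted p = 0.287). Bscl2, the seipin of droplet formation, had -0.69 ± 0.25 (adjusted p = 0.271). With the covariate these were -0.39, -0.58 and -0.39, and Fabp4, the most abundant fatty acid carrier of adipocytes, had -0.53 ± 0.35 (adjusted p = 0.538) and 0.04 with it. In a piece of tissue, fewer adipocytes and less of a transcript per adipocyte cannot be told apart.

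**Figure D2:**
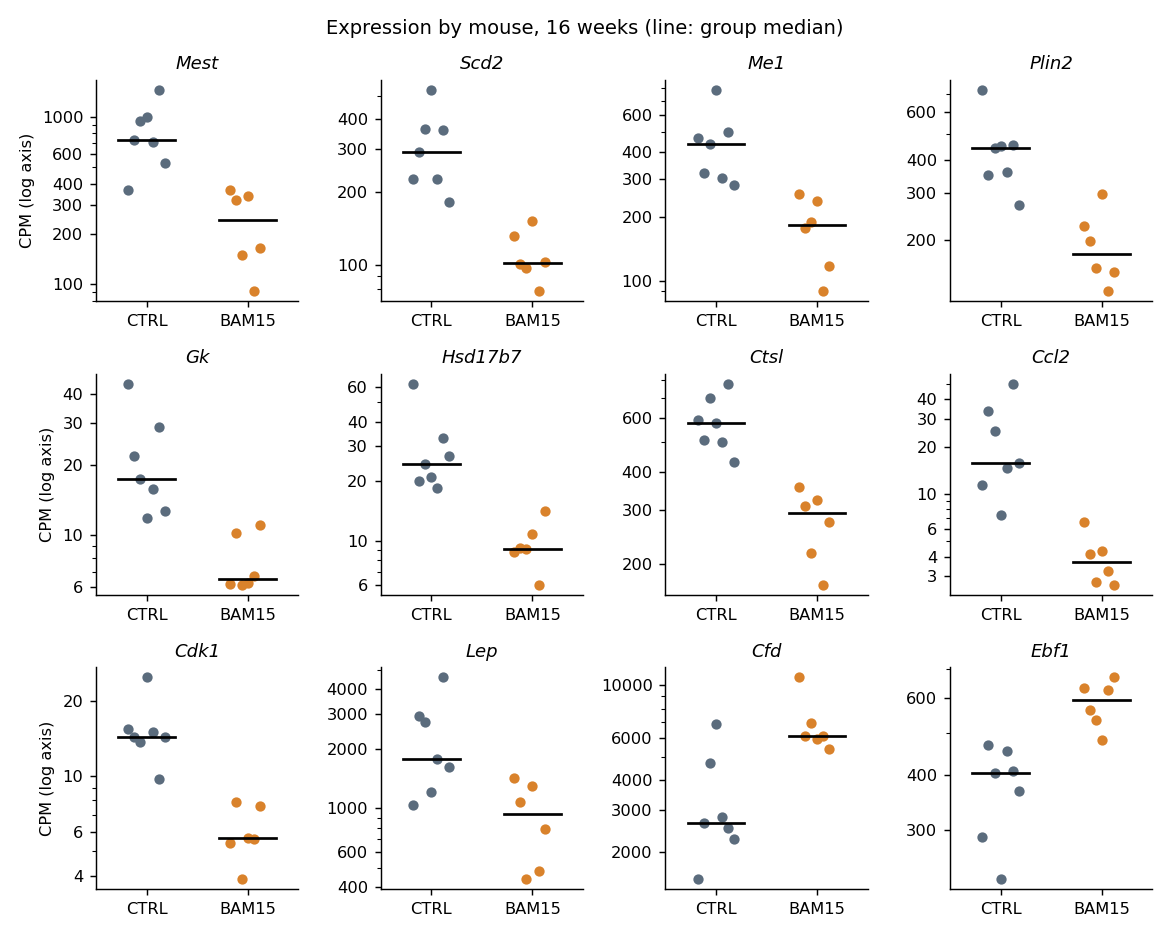
CPM (log axis) of 12 genes in the 7 Young CTRL mice (grey) and 6 Young BAM15 mice (orange), with a line at the group median. Mest, Scd2, Me1, Gk, Hsd17b7, Ctsl, Ccl2 and Cdk1 are lower in every BAM15 mouse than in every control, Ebf1 is higher in every BAM15 mouse, and Plin2, Lep and Cfd overlap.

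Genes of lipolysis and of the hormone output of adipocytes went in both directions. Of 16 lipolysis genes 3 lay lower and 1 higher, with a median of -0.10, and with the B cell covariate 1 lay lower and 1 higher, with a median of 0.14. Adrb3, the beta-3 adrenergic receptor that starts lipolysis, lay at 66.7, 155 and 243 CPM in Young CTRL against 227, 265 and 481 CPM in Young BAM15, a log2 change of 1.05 ± 0.43 (adjusted p = 0.311) and 1.13 with the B cell covariate. The groups overlapped through Young CTRL 4 alone. Ptger3, a prostaglandin receptor that restrains lipolysis, had -1.09 ± 0.36 (adjusted p = 0.253), Abhd5, the co-activator of the triglyceride lipase, -0.97 ± 0.36 (adjusted p = 0.274), and Mgll, the monoglyceride lipase, -0.83 ± 0.31 (adjusted p = 0.278). Among 18 adipokine genes 4 lay lower and 1 higher, and with the covariate 1 lay lower and 1 higher (medians -0.45 and -0.12). Lep, leptin, was at 1044, 1771 and 4576 CPM in Young CTRL against 442, 934 and 1423 CPM in Young BAM15. Its groups overlapped, with a log2 change of -1.30 ± 0.58 (adjusted p = 0.347) that was -0.67 (unadjusted p above 0.05) with the covariate and -1.52 (unadjusted p under 0.05) without the skin libraries. Adipoq, adiponectin, had -0.50 ± 0.31 (adjusted p = 0.496) and -0.08 with the covariate. Cfd, the adipocyte serine protease adipsin, was the higher one: it lay at 1550, 2656 and 6868 CPM in Young CTRL against 5400, 6142 and 10806 CPM in Young BAM15. Only 1 control exceeded the lowest BAM15 mouse, and the log2 change was 1.05 ± 0.33 (adjusted p = 0.219), 1.23 with the covariate and 0.82 without the skin libraries. Metrnl, a secreted meteorin-like protein, separated without overlap (21.6 to 32.5 against 9.03 to 19.4 CPM, log2 change -0.89 ± 0.37, adjusted p = 0.313), and C1qtnf12, the adipolin gene, had -0.61 ± 0.22 (adjusted p = 0.271). Of 14 fat mass expansion genes, which include Mest, 4 lay lower and 0 higher, with a median of -0.48, and with the B cell covariate 1 lay lower and 1 higher, with a median of -0.19. Trp53inp2 had -1.10 ± 0.49 (adjusted p = 0.344).

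Cholesterol synthesis held the largest share of lower genes among the metabolic lists, 18 of 22 genes tested at an unadjusted p under 0.05 and 0 higher, with a median log2 change of -1.39. The pathway builds sterols from acetyl-CoA by way of mevalonate and squalene, and its genes share activation by the transcription factor SREBP-2. Young CTRL 1, the library with the most skin transcript, stood far above the others: its sterol genes averaged 7.01 on the log2 CPM scale, where the other controls lay at 4.49 to 4.94. Without Young CTRL 1 the median was -0.64, and without both skin libraries it was -0.71, with 12 of 22 lower and 1 higher against 7.33% and 8.45% of all genes. Under the B cell covariate 15 of 22 lay lower, against 3.42% of all genes. With the covariate and without the skin libraries together 3 of 22 lay lower and 0 higher, with a median of -0.41, against 1.45% and 0.798% of all genes. Hsd17b7, a ketoreductase late in the pathway, lay at 18.5, 24.4 and 62.3 CPM in Young CTRL against 5.99, 9.16 and 14.2 CPM in Young BAM15. All 6 BAM15 mice were below all 7 controls, and the log2 change of -1.60 ± 0.37 (adjusted p = 0.179) was -1.72 with the covariate and -1.27 without the skin libraries. Nsdhl, a sterol dehydrogenase, lay at 32.6, 42.8 and 78.4 CPM in Young CTRL against 14.6, 18.3 and 26.5 CPM in Young BAM15. It separated the groups as well, with a log2 change of -1.34 ± 0.32 (adjusted p = 0.179) and -1.27 without the skin libraries. Lss, the lanosterol synthase, named after its values were seen as the third member without overlap, had -2.03 ± 0.61 (adjusted p = 0.201), which was -1.03 without the skin libraries. Cyp51, the lanosterol demethylase, had -1.85 ± 0.47 (adjusted p = 0.179) and -1.17 without them. Hmgcs1, the synthase ahead of the rate-limiting step, was the most abundant of the list at 428, 566 and 2591 CPM in Young CTRL against 238, 316 and 437 CPM in Young BAM15. Its highest value was that of Young CTRL 1, and its log2 change of -1.45 ± 0.40 (adjusted p = 0.188) was -0.95 (unadjusted p under 0.05) without the skin libraries.

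The upstream 250 bases of 3 of these genes are shown because most members of the list lay lower: Hsd17b7 and Nsdhl, which separated the groups and had the smallest p, and Hmgcs1, the most abundant. The sequences are those of RefSeq on GRCm38.p6, 5′ to 3′ on the strand of the gene and ending at its start site: chr1:169969206-169969455 on the minus strand for Hsd17b7, chrX:72918271-72918520 on the plus strand for Nsdhl, and chr13:119690101-119690350 on the plus strand for Hmgcs1. Capitals mark CCAAT, the box bound by NF-Y, which acts with SREBP at sterol genes, searched on both strands and found here as ATTGG, and in Hmgcs1 also the sterol regulatory element TCACNCCAC, searched on both strands. No match of one motif overlaps one of the other.
Hsd17b7: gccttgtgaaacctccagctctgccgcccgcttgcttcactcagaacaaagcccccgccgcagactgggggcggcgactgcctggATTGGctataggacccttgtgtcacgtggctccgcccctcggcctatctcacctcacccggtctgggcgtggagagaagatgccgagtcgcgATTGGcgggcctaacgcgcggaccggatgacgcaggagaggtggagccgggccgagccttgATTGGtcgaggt
Nsdhl: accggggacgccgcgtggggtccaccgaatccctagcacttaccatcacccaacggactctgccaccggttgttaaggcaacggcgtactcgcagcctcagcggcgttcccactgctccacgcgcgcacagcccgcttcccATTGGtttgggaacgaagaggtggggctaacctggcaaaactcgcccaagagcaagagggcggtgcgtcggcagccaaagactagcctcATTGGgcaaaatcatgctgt
Hmgcs1: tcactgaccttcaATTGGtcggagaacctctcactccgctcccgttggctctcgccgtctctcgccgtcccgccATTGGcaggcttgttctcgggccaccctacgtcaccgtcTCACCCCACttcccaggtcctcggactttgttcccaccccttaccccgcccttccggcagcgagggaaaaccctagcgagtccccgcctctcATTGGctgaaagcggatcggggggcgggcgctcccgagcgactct
CCAAT was found in 15 of the 15 list members for which an upstream window was at hand, against 37.5% of 27025 genes and 33.8% of 32851 windows of the same length. TCACNCCAC was found in 1 of those 15 members, Hmgcs1, against 1.2% of genes and 1.1% of windows. A match is a description of the letters only.

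**Figure D3:**
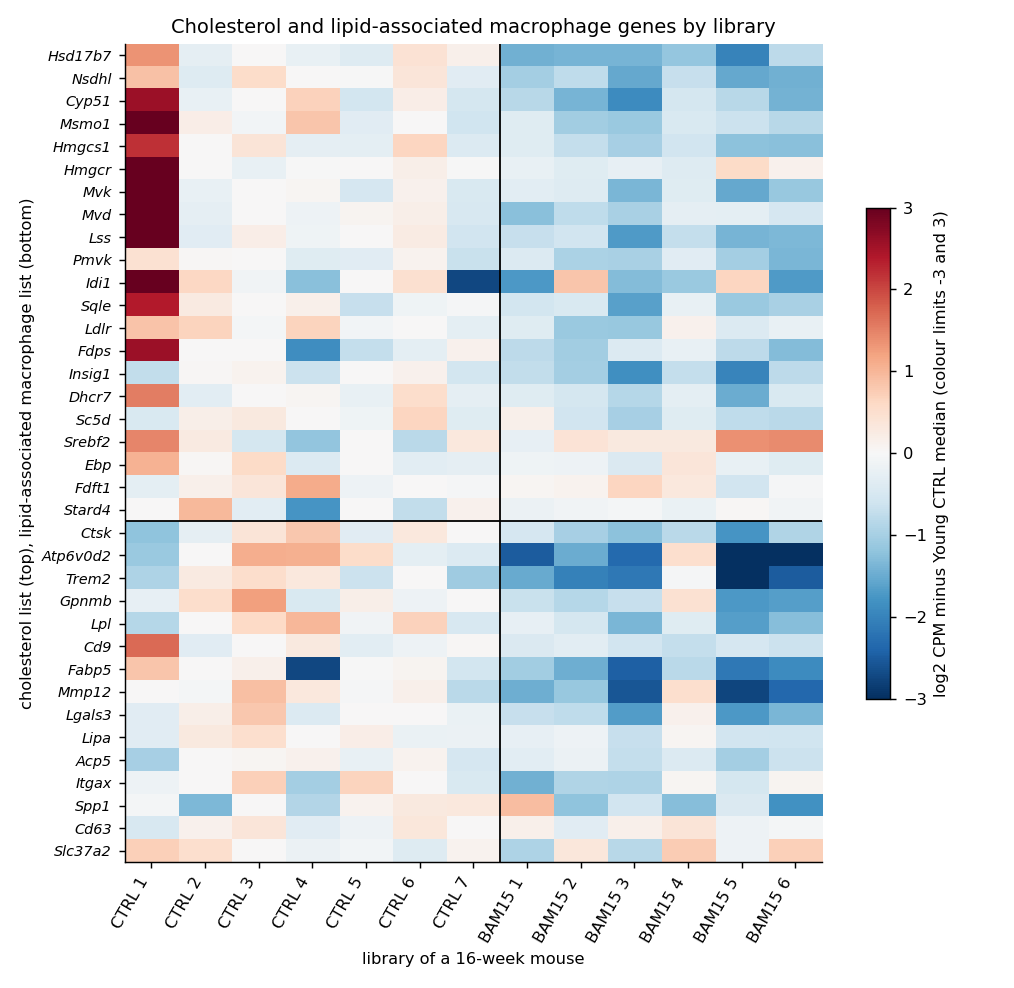
Log2 CPM minus the Young CTRL median for each gene (rows, ordered by p within the list) in each of the 13 libraries (columns), for 21 of the 22 cholesterol genes above the line and the 15 lipid-associated macrophage genes below it. Young CTRL 1 stands apart as red in the cholesterol genes, Hsd17b7 and Nsdhl are blue in every BAM15 library, and most macrophage genes are bluest in Young BAM15 3, 5 and 6.

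Genes of lipid-associated macrophages, the cells that gather around enlarged adipocytes and digest their lipid, lay lower with BAM15, with 8 of 15 lower and 0 higher and a median of -0.92. Of 15 general macrophage markers 0 had an unadjusted p under 0.05 in either direction, with a median of -0.14. The difference between both lists was not tested. Trem2, the lipid receptor that defines these cells, was at 4.41, 9.37 and 13.7 CPM in Young CTRL against 0.461, 2.1 and 9.1 CPM in Young BAM15. The groups overlapped through Young BAM15 4, and the log2 change was -1.51 ± 0.54 (adjusted p = 0.271). Atp6v0d2, a proton pump subunit of the lysosome, had -1.71 ± 0.60 (adjusted p = 0.271), Gpnmb, a glycoprotein of lipid-laden macrophages, -0.92 ± 0.34 (adjusted p = 0.276), and Ctsk, cathepsin K, -1.06 ± 0.31 (adjusted p = 0.197). Cd63, a tetraspanin of many cell types and one of the 2 most abundant of the list with Lpl, had 0.04 ± 0.39 (adjusted p = 0.983). Lpl, which is among the lower members, is also counted in the list of droplet coat and fatty acid uptake. With the B cell covariate Trem2 was at -0.72 (unadjusted p above 0.05) and Ctsk at -0.39 (unadjusted p above 0.05), and 1 of 15 members lay lower, against 3.42% of all genes. Without the skin libraries 8 of 15 lay lower, and with both changes 2 of 15. With only the young libraries that held lymph node transcript the median was -0.71 with 2 of 15 lower, against 629 of 16997 genes. That fit has 2 controls, among them Young CTRL 1 with the most skin transcript. With only the young libraries without lymph node transcript, where 1 BAM15 library is left, the median was -0.80.

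The lysosome list, which shares Ctsk and Atp6v0d2, had 8 of 24 genes lower and 1 higher, with a median of -0.38. The B cell covariate left 4 lower and 0 higher, with a median of -0.14. Ctsl, the protease cathepsin L, was at 431, 578 and 779 CPM in Young CTRL against 171, 293 and 357 CPM in Young BAM15. No values overlapped, and the log2 change of -1.08 ± 0.25 (adjusted p = 0.179) was -0.73 (unadjusted p under 0.05) with the B cell covariate and -1.15 without the skin libraries. Lgmn, the protease legumain, had -0.71 ± 0.18 (adjusted p = 0.179) and -0.61 with the covariate, and Atp6v1a, the catalytic subunit of the proton pump, -0.72 ± 0.21 (adjusted p = 0.197) and -0.57. The abundant cathepsins Ctsd and Ctsb had -0.81 ± 0.33 (adjusted p = 0.311) and -0.57 ± 0.32 (adjusted p = 0.46). Cstb, which inhibits cathepsins, separated the groups: 147, 217 and 654 CPM in Young CTRL against 63.6, 77.7 and 118 CPM in Young BAM15, a log2 change of -1.59 ± 0.36 (adjusted p = 0.179) and -1.25 without the skin libraries, of which Young CTRL 1 held its highest value.

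Chemokine genes split, with 3 of 20 lower and 3 higher, and 2 lower and 0 higher with the B cell covariate. Ccl2, which draws monocytes into tissue, was at 7.4, 15.8 and 50.4 CPM in Young CTRL against 2.63, 3.69 and 6.66 CPM in Young BAM15. Every BAM15 mouse was below every control, and the log2 change of -2.51 ± 0.65 (adjusted p = 0.179) was -2.01 (unadjusted p under 0.05) with the B cell covariate and -2.72 (unadjusted p under 0.05) without the skin libraries. Ccl7, another monocyte chemokine, had -1.97 ± 0.53 (adjusted p = 0.187) and -0.98 with the covariate, and Ccl9 had -0.89 ± 0.40 (adjusted p = 0.346). C6, a component of the complement attack complex, lay at 19.4, 24.4 and 57.0 CPM in Young CTRL against 8.2, 12.1 and 16.9 CPM in Young BAM15, again with no overlap, a log2 change of -1.45 ± 0.33 (adjusted p = 0.179) and -1.10 with the covariate.

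Of 32 collagen and matrix genes, 14 lay lower and 0 higher, with a median of -0.62. Postn, periostin, was at 50.3, 102 and 123 CPM in Young CTRL against 29.0, 46.9 and 57.2 CPM in Young BAM15, with a log2 change of -1.10 ± 0.30 (adjusted p = 0.188) and -0.78 (unadjusted p under 0.05) with the B cell covariate. Col1a1, a chain of the main fibrillar collagen, had -0.98 ± 0.35 (adjusted p = 0.272), Col15a1, a basement membrane collagen, -1.28 ± 0.49 (adjusted p = 0.285), and the abundant Col3a1 and Sparc -0.78 ± 0.32 (adjusted p = 0.311) and -0.70 ± 0.33 (adjusted p = 0.373). With the covariate these 4 were -0.54, -0.60, -0.18 and -0.24, the list's median was -0.21, and only Postn of the 32 kept an unadjusted p under 0.05. Without the skin libraries 19 of 32 lay lower, with a median of -0.78. With both changes 3 lay lower, with a median of -0.41. Pcolce2, which helps cut procollagen, lay at 96.7, 203 and 297 CPM in Young CTRL against 32.4, 75.2 and 126 CPM in Young BAM15, overlapping through 1 control, with a log2 change of -1.48 ± 0.31 (adjusted p = 0.179) and -1.21 (unadjusted p under 0.05) with the covariate.

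**Figure D4:**
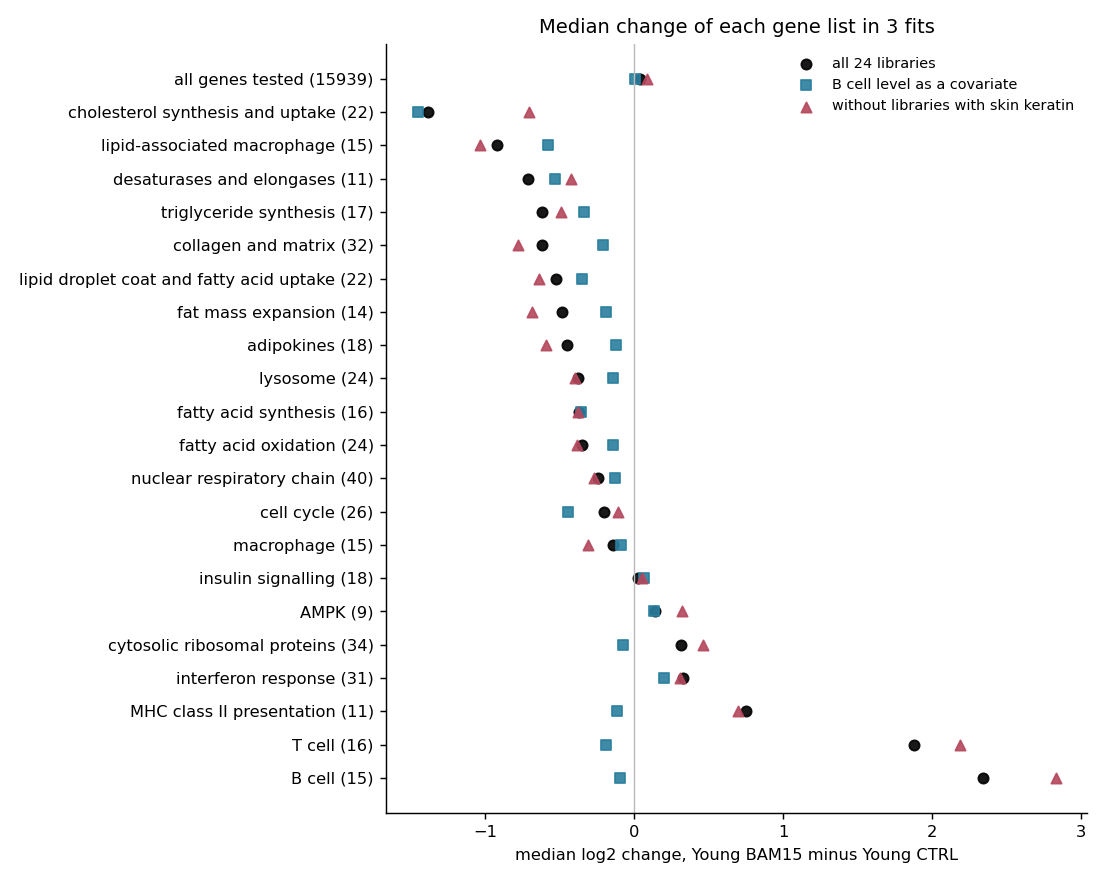
Median log2 change of the tested genes of 21 lists and of all genes (number in brackets), Young BAM15 minus Young CTRL, from the fit to all libraries (circle), with the B cell level as a covariate (square) and without the skin libraries (triangle). The cholesterol median is -1.39 with all libraries and -0.71 without the skin libraries. Matrix genes move towards 0 with the covariate, and the B cell, T cell and MHC class II medians lie near 0 with it. For the B cell list this is built in, because the covariate is the mean of its genes.

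Other lower genes had the smallest p of the comparison. Cdk1, the kinase that drives entry into mitosis, was at 9.72, 14.3 and 24.8 CPM in Young CTRL against 3.88, 5.64 and 7.89 CPM in Young BAM15. It separated the groups, with a log2 change of -1.35 ± 0.28 (adjusted p = 0.179), -1.22 with the B cell covariate and -1.36 without the skin libraries. Ccne1, cyclin E1, had -1.56 ± 0.48 (adjusted p = 0.21), while the cell cycle list had 2 of 26 genes lower and 1 higher. Under the B cell covariate 6 of 26 lay lower and 0 higher, with a median of -0.45 against -0.20 with all libraries and no covariate. Plpp2, a lipid phosphate phosphatase, lay at 21.4, 30.0 and 42.5 CPM in Young CTRL against 9.52, 13.7 and 20.1 CPM in Young BAM15, with no overlap and a log2 change of -1.13 ± 0.24 (adjusted p = 0.179). Atp2a2, the calcium pump SERCA2, ranged over 102 to 213 CPM in Young CTRL against 63.1 to 96.1 CPM in Young BAM15, with no overlap and -0.74 ± 0.17 (adjusted p = 0.179). Slc25a15, the mitochondrial ornithine carrier, had -1.07 ± 0.25 (adjusted p = 0.179), and Ttc39c -1.37 ± 0.30 (adjusted p = 0.179), both with no overlap. With the covariate these 4 were -0.93, -0.61, -1.08 and -1.33. Irx1, a homeobox gene, had -3.29 ± 0.70 (adjusted p = 0.179) and medians of 5.42 and 0.623 CPM. Krt79, a keratin of hair follicle and sebaceous gland, had -4.66 ± 1.06 (adjusted p = 0.179) with 899 CPM in Young CTRL 1, and -1.45 (unadjusted p under 0.05) without the skin libraries.

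Genes of mitochondrial energy metabolism and of stress responses followed. Of 24 genes of fatty acid oxidation 6 lay lower and 0 higher, with a median of -0.35 (-0.14 and 4 lower with the B cell covariate). Slc25a20, the carnitine carrier, had -0.84 ± 0.23 (adjusted p = 0.187) and -0.71 (unadjusted p under 0.05) with the B cell covariate. Cpt1a, which commits fatty acids to oxidation, separated the groups at 53.1 to 117 against 27.4 to 47.2 CPM (-0.92 ± 0.34, adjusted p = 0.275), and Acsl1, the main acyl-CoA synthetase of adipocytes, had -0.88 ± 0.27 (adjusted p = 0.21). Acot1, an acyl-CoA thioesterase, had -5.59 ± 1.46 (adjusted p = 0.187) with all libraries and -0.57 (unadjusted p above 0.05) without those with skin. Of 40 nuclear subunits of the respiratory chain 37 had a log2 change below 0, but 3 lay lower at an unadjusted p under 0.05, with a median of -0.25. Under the B cell covariate 0 lay lower, and without the skin libraries 7 did. None of 10 mitochondrial genome transcripts, 9 AMPK genes or 18 insulin signalling genes passed in either direction, with medians of -0.34, 0.14 and 0.03. The integrated stress response had 6 of 22 lower and 0 higher, with 2 lower and 1 higher with the B cell covariate, 3 lower without the skin libraries and 0 lower with both changes. Gdf15, its secreted hormone, had -1.16 ± 0.53 (adjusted p = 0.353) at a median of 1.73 CPM in Young CTRL against 0.927 CPM in Young BAM15. Fgf21 stayed at or under 0.818 CPM in the 13 young libraries, and Ucp1, the uncoupling protein of brown fat, at or under 7.76 CPM. Dio2, the deiodinase of thermogenic fat, had -2.68 ± 0.77 (adjusted p = 0.197) at medians of 4.51 and 0.618 CPM. Slc2a4, the insulin-regulated glucose carrier, had 0.17 ± 0.32 (adjusted p = 0.865) and Pparg, the master regulator of adipocytes, -0.21 ± 0.40 (adjusted p = 0.867).

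Lymphocyte genes had positive log2 changes with BAM15, and the lymph node content of the libraries moved with them. All 15 B cell genes and all 16 T cell genes had log2 changes above 0, with medians of 2.34 and 1.88. Of the B cell and T cell genes 1 and 2 had an unadjusted p under 0.05. With the B cell covariate the medians were -0.10 and -0.19. The covariate is the mean of the same 15 B cell genes, so a B cell median near 0 is built into that fit. Glycam1, a sulphated mucin of lymph node venules, was at 0, 0 and 26.8 CPM in Young CTRL against 0.148, 26.8 and 105 CPM in Young BAM15. Of 31 interferon response genes 7 lay higher and 0 lower, with a median of 0.33, and 2 lay higher with the covariate. Without the skin libraries 7 lay higher and 1 lower. With the covariate and without those libraries together 0 lay higher and 0 lower, with a median of 0.06. Usp18 had 1.03 ± 0.33 (adjusted p = 0.246), Mx1 1.76 ± 0.61 (adjusted p = 0.268) and Igtp 0.63 ± 0.22 (adjusted p = 0.268); with the covariate they were 0.48, 0.72 and 0.59. Among the higher genes with the smallest p, the Ras activator Rasgrp2, the cytokine receptor-like gene Crlf3, the GTPase regulator Arhgap17 and the phospholipase Pla2g2d had log2 changes of 0.87 ± 0.23, 1.28 ± 0.34, 0.76 ± 0.20 and 1.68 ± 0.45, and with the covariate 0.51, 0.50, 0.43 and 0.63. Ankrd44, Mrtfa, Zmat1 and Arid3b had 1.10 ± 0.27, 1.32 ± 0.32, 1.17 ± 0.29 and 1.42 ± 0.38, and 0.59, 0.63, 0.73 and 0.74 with it.

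Some higher genes separated the groups. Young BAM15 1 held no lymph node transcript, and a part of lymph node content in the changes of these genes was not tested. Dleu2, a noncoding RNA that hosts microRNAs, was at 16.4, 28.3 and 33.6 CPM in Young CTRL against 40.1, 48.6 and 86.2 CPM in Young BAM15. All BAM15 mice lay above all controls, with a log2 change of 0.97 ± 0.23 (adjusted p = 0.179) and 0.63 with the covariate. AI480526, a noncoding transcript, lay at 4.89 to 20.1 CPM against 24.4 to 35.4 CPM, with 1.18 ± 0.30 (adjusted p = 0.179) and 0.87. Nmi, an interferon-induced gene, ranged over 9.63 to 18 CPM in Young CTRL against 19.3 to 33.9 CPM in Young BAM15, with 0.80 ± 0.21 (adjusted p = 0.179) and 0.64. St6galnac5, a sialyltransferase, had 1.26 ± 0.33 (adjusted p = 0.187) and 1.36 with the covariate. Ebf1, a transcription factor of both adipocytes and B cells, was at 232, 404 and 469 CPM in Young CTRL against 481, 595 and 668 CPM in Young BAM15. Its groups did not overlap, and the log2 change of 0.64 ± 0.20 (adjusted p = 0.221) was 0.60 (unadjusted p under 0.05) with the covariate. Nr2f2, the nuclear receptor COUP-TFII, had overlapping groups and a log2 change of 0.59 ± 0.23 (adjusted p = 0.287).

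The effect in 16-week mice was set beside that in 92-week mice, whose control and BAM15 libraries are separate, so the 2 effects share no sample. No gene had a difference between both effects at an adjusted p under 0.05 in edgeR (0 of 15939), and 809 (5.08%) had one at an unadjusted p under 0.05. That number was 463 without Aged BAM15 5, 1303 without Aged BAM15 4 and 2111 without Aged CTRL 2. In Aged CTRL 2, Aged BAM15 2 and Aged BAM15 5 mt-Rnr2 was at 2221, 2104 and 3071 CPM. The other aged libraries had 6288 to 17223 CPM. When these aged libraries and Young CTRL 4 were all dropped, 570 genes had an unadjusted p under 0.05 for the difference. The correlations and percentages below keep them. DESeq2 called 2, Irx1 and Zfp185. Across genes, which are not independent replicates, the log2 changes correlated with a Pearson r of 0.312. Of the 2081 genes with an unadjusted p under 0.05 in young mice, 1574 (75.6%) went the same way in aged mice, where 718 genes (4.5%) lay higher and 732 (4.59%) lower at that threshold. Of 353 genes with such a p at both ages 340 (96.3%) did, 210 lower and 130 higher. In aged mice the B cell list had a median of 1.16 with 0 of 15 members higher at an unadjusted p under 0.05. With that level as a covariate the numbers of genes that went the same way at both ages were 479 of 698 (68.6%) and 110 of 115 (95.7%), at a Pearson r of 0.131. The share of all genes tested that went the same way was not counted, so these percentages stand without a background.

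**Figure D5:**
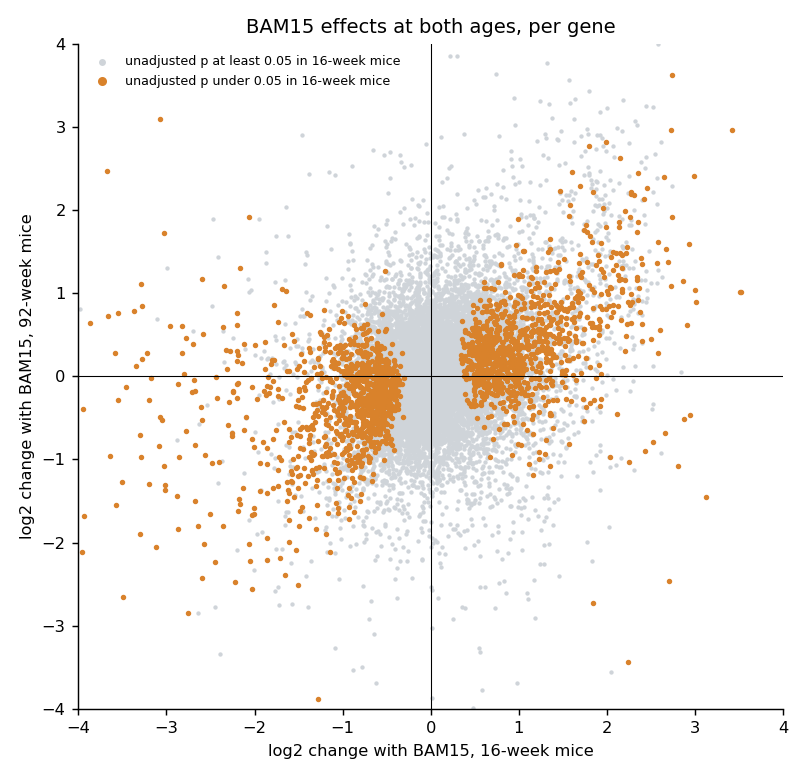
Log2 change with BAM15 in 16-week mice (x axis) and 92-week mice (y axis) for 15849 genes, with 90 genes beyond the axis limits of 4 left out; orange marks genes with an unadjusted p under 0.05 in 16-week mice. Most orange points fall at the lower left and upper right, where both effects have the same sign.

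Genes lower at both ages included Ctsl (-1.08 ± 0.25 in young and -1.12 ± 0.28 in aged mice), Lgmn (-0.71 ± 0.18 and -0.96 ± 0.20), Cdk1 (-1.35 ± 0.28 and -1.13 ± 0.30), Scd2 (-1.49 ± 0.37 and -1.19 ± 0.40), Plin2 (-1.17 ± 0.29 and -0.91 ± 0.32) and Lep (-1.30 ± 0.58 and -1.32 ± 0.64). Cfd was higher at both, at 1.05 ± 0.33 and 1.51 ± 0.35. The lipid-associated macrophage list had a median of -1.07 in aged mice with 11 of 15 lower, and the matrix list -0.61 with 14 of 32 lower. Cholesterol synthesis had a median of -0.15 in aged mice with 1 of 22 lower. The difference between both effects had an unadjusted p under 0.05 in 7 of 22 of its genes, against 5.08% of all genes. That count was 7 with the B cell covariate and 3 without the skin libraries, against 5.89% of all genes in the latter fit. With both changes it was 1, against 506 of 15783 genes. Irx1 had the opposite sign in aged mice, 1.11 ± 0.69, a difference of -4.41 ± 0.97 (adjusted p = 0.866 in edgeR). Slc25a15 was at 0.37 ± 0.26 in aged mice, a difference of -1.44 ± 0.36 (adjusted p = 0.899). Zfp185, a zinc finger protein, had -0.52 ± 0.25 in young and 1.27 ± 0.28 in aged mice, a difference of -1.79 ± 0.37 (adjusted p = 0.866). Hlf, a transcription factor under clock control, had -0.13 ± 0.22 and 1.06 ± 0.24, a difference of -1.20 ± 0.32. In the other direction Clec12a, a lectin of myeloid cells, had 0.50 ± 0.30 and -1.49 ± 0.34, a difference of 1.99 ± 0.45 (adjusted p = 0.866). Mpeg1, the macrophage perforin, had a difference of 1.64 ± 0.43, Slc37a2, a sugar-phosphate carrier of macrophages, 1.75 ± 0.44, and Dhx58, an RNA sensor, 1.21 ± 0.35.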

How the data were processed

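RNA of inguinal white adipose tissue was sequenced from the 3′ end (Lexogen QuantSeq, per the labels' protocols), 1 library per mouse. Every result comes from the raw counts per Ensembl gene that the authors deposited. Their other deposited table holds signal, the raw counts scaled by a size factor for each library (they differ by at most 6.52e-09 counts once scaled back). R 3.4.3, DESeq2 1.18.1 and GRCm38 are named in the submitters' processing notes, while the sources used here give neither aligner nor counting program. Symbols came from the table for 14606 of 17541 genes and from the GENCODE annotation of GRCm38 for 2888.

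In R 4.3.3, counts were scaled with TMM factors, filtered with filterByExpr (15939 genes kept, 1602 removed) and fitted in edgeR 4.0.16 (quasi-likelihood F test) to all 24 libraries with a group term (20 residual degrees of freedom). Adjusted p values are Benjamini-Hochberg over all genes, and a gene was called under 0.05. SE is that of the log2 change, and log2 CPM used a prior count of 2. Alternatives included DESeq2 1.42.0, limma-voom of limma 3.58.1, the B cell covariate (mean log2 CPM of its list) and fits without libraries. On simulated counts the fit called 11 of 100 genes raised 2-fold in Young BAM15 and 59 of 98 raised 4-fold, with 8 false calls.

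Genes named were up to 12 per direction with the smallest p and a mean of at least 5 CPM over the young libraries, predicted genes left out, up to 4 members with the smallest p and the 2 most abundant of each list described, 15 genes chosen by name, 4 per direction with the smallest p for the difference between ages, and up to 6 per direction in a fit with B cell and muscle covariates. The samples were chosen by label; the lists and the rule were written with earlier results of these data known. Lists are described by counts and medians beside those of all genes. Lss and the genes called by a single alternative were named after their values were seen. No 2 libraries of a group agreed within sampling noise (chi-square per gene 19.8 to 644 over 36 pairs). Pairs with Young CTRL 4 lay at 386 to 644, and all other pairs at 218 or less. Promoter sequences are from RefSeq. Some genes that the rule names are not reported here.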

Additional observations from a re-analysis of the deposited data

Results flagged for a closer look

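In 22 of 218 groups of young mice checked (a gene or list mean in Young CTRL or Young BAM15), 1 library lay farther from its nearest neighbour than Dixon's critical value allows, where chance gives about 1 in 20. All values here are log2 CPM. Young CTRL 1, the library with the most skin transcript, held 10 of the 22: it was high for Acly (8.20), Cstb (9.35), Krt79 (9.81), Psph (7.49) and the sterol genes Cyp51 (7.99), Hmgcs1 (11.34) and Lss (7.46), with a mean of 7.01 over the cholesterol list, and low for Col3a1 (9.32) and the collagen and matrix list (6.23). Young BAM15 1, the BAM15 library without lymph node transcript, was low for Glycam1 (-1.77) and the B cell list (-1.36), and high for Cfd (13.40).

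Young BAM15 5 was low for Col1a1 (8.10), Col3a1 (8.96) and the collagen and matrix list (5.93), and high for Dleu2 (6.43). Muscle transcript set apart Young BAM15 3 (13.83 for Acta1 and 10.99 for the skeletal muscle list) and Young CTRL 7 (11.08 for that list). Young CTRL 4 was high for Cpt1a (6.88) and Young CTRL 6 low for Dleu2 (4.05).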

How the results depend on the processing

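The groups hold 6 and 7 mice, the common biological coefficient of variation was 0.621, and lymph node, skin and muscle content differed between libraries. Of 3172 values of the 103 genes over the alternatives, 3013 kept their direction and side of the adjusted threshold, 105 (of 58 genes) passed it in the alternative and 54 changed sign. Of 1953 list medians 105, of 44 lists, moved by more than the spread between mice.

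The number of genes called, 0 in edgeR, was 161 in DESeq2 and 679 in limma-voom with quality weights. It was 7 with B cell and muscle covariates, all lower, among them Klk10, Krt14, Lgals7, Dsp, Spink5 and Krtdap (named after their values were seen). That fit kept the libraries with skin keratin, Young CTRL 1 and 7, where Krt14 was at 840.0 and 90.0 CPM and Dsp at 727.5 and 128.8 CPM. In the other young libraries Krt14 reached at most 2.1 CPM and Dsp at most 1.65 CPM. The number called was 108, all lower, with only the young libraries with lymph node transcripts (2 CTRL, 5 BAM15). Young CTRL 1, the library with the most skin transcript, is 1 of those 2 controls. In that fit 12 of 12 skin genes and 16 of 22 cholesterol genes were lower at an unadjusted p under 0.05, against 629 of 16997 genes. Leaving out each mouse gave 0 to 1 genes, the 1 being Scx (log2 -7.37, adjusted p = 0.0331, edgeR) without Young BAM15 3. The 2081 genes with an unadjusted p under 0.05 became 4057 in limma-voom, 698 with the B cell covariate, 783 with both covariates, 3235 without the 4 libraries with low mt-Rnr2 (under 0.5% of counts), 759 with only the libraries with lymph node transcripts, 355 with the B cell covariate and without the skin libraries, and 288 with only the young libraries without lymph node transcripts, where 1 BAM15 library is left and is assumed to vary like the other groups. Leaving out each mouse gave 1184 (without Young BAM15 5) to 2459 (without Young CTRL 5). For the difference between ages DESeq2 called 2 genes against 0, Irx1 (-4.43) and Zfp185 (-1.80), both at an adjusted p of 0.0172. The 809 genes with an unadjusted p under 0.05 for this difference in edgeR became 1220 in limma-voom, 506 with the B cell covariate and no skin libraries and 256 with only the young libraries without lymph node transcripts. The fit with the B cell covariate and without the skin libraries, the fit without lymph node transcripts and the fit without skin or muscle libraries were chosen after seeing the data.

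The replicate numbers are names and do not pair the mice: deviations of same-numbered mice correlated at -0.357 to 0.443 over 6 pairs, 2 above 0.1, and 1 of 6 matched best with its own number. A fit with the replicate number as a block called 0 genes, with 1598 at an unadjusted p under 0.05, and changed the sign of Cd63 (-0.03), Ucp1 (0.59), Acta1 (-0.28) and Hlf (0.001).

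Other changes of sign, as log2 changes, were as follows, and the cause was not tested. With the B cell covariate Scd1 had 0.085, Fabp4 0.04, Pparg 0.07, Fgf21 0.026 and Hlf 0.14. With both covariates Scd1 had 0.039, Fabp4 0.017 and Hlf 0.14. With the B cell covariate and no skin libraries Scd1 had 0.11, Pparg 0.027 and Fgf21 0.11. With only the libraries with lymph node transcripts Adipoq had 0.17, Ucp1 2.31 and Hlf 0.41. With only those without, Scd1 had 0.39, Hacd2 0.069, Fabp4 0.034, Pparg 0.94, Acta1 -6.80, Pla2g2d -0.11, Usp18 -0.17, Mx1 -0.35 and Clec12a -0.21. In limma-voom Scd1 had 0.094, Cd63 -0.10 and Acta1 -1.13. Ucp1 had 0.029 in DESeq2 and 0.004 with its size factors. Without the 4 libraries with low mt-Rnr2 Cd63 had -0.033 and Ucp1 1.81. Cd63 had -0.045 without the skin libraries, -0.018 without the muscle libraries and -0.067 without either, and Acta1 had -2.07 and -2.28 in the last 2 and -0.19 with the muscle covariate. Leaving out each mouse gave -6.33 to 4.51 for Acta1, -0.047 to 0.104 for Cd63, -0.20 to 0.12 for Scd1 and -0.22 to 0.26 for Ucp1.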

Other observations

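Antioxidant enzymes had 7 of 22 members lower with BAM15 in 16-week mice at an unadjusted p under 0.05 and 0 higher, with a median log2 change of -0.32. The B cell covariate left 0 lower and 1 higher, with a median of -0.19, and with the covariate and without the skin libraries 1 lay lower. Sod2, the superoxide dismutase of the mitochondrial matrix, was at 232, 294 and 620.3 CPM (lowest, median and highest) in Young CTRL against 117, 179 and 251 CPM in Young BAM15, a log2 change of -1.02 ± 0.33 (adjusted p = 0.228) and -0.72 (unadjusted p above 0.05) with the covariate. Srxn1, which repairs peroxiredoxins, had -0.77 ± 0.28 (adjusted p = 0.271), and the peroxiredoxins Prdx6 and Prdx5 had -0.65 ± 0.26 (adjusted p = 0.307) and -0.68 ± 0.28 (adjusted p = 0.309). With the covariate these 3 were -0.63, -0.29 and -0.25.

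Of the integrated stress response, the serine synthesis enzymes Psph and Psat1 had -1.42 ± 0.49 (adjusted p = 0.271) and -0.76 ± 0.33 (adjusted p = 0.339). Psph was highest in Young CTRL 1 and had -0.34 (unadjusted p above 0.05) without the skin libraries. Cebpb, an early transcription factor of adipocyte differentiation, had -0.81 ± 0.29 (adjusted p = 0.271), -0.73 (unadjusted p under 0.05) with the covariate and -0.62 (unadjusted p under 0.05) without the skin libraries.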
